A study of Mus musculus with 12 samples.

Results

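Imiquimod cream was set against sham cream in gamma delta T cells from wild-type C57BL/6 mice. The cells carry the Vg4 and Vd4 chains of the T cell receptor and came from lymph nodes that drain the skin. The comparison takes 3 libraries per cream, 6 of the 12 in the series, chosen by the genotype and treatment in the labels. It covers 1571 of 45796 listed genes, those whose normalized value averaged 5 or more across the 12 libraries. The other 6 libraries are from NF-kB1-deficient C57BL/6 mice given either cream, and they enter the filter, the estimate of spread behind every p-value, and the comparison of the genotypes' responses. The labels give no age, sex, dose or duration, and do not say whether animals were pooled or whether replicates were separate animals. The p-values therefore measure the spread between these samples, 3 per group, which may be technical. The fit drew each gene's spread mostly from genes of similar level, with a median of 145 prior degrees of freedom beside 8 residual ones.

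Gamma delta T cells recognise antigen through a receptor made of gamma and delta chains and can release cytokines without a long priming phase. In mice, subsets of them that make interleukin 17 are found in skin and its draining nodes, and other subsets marked by CD27 tend to make interferon gamma. Imiquimod activates Toll-like receptor 7, and its repeated use on mouse skin sets off a psoriasis-like inflammation in which interleukin 17 from gamma delta T cells takes part. A resting T cell that is activated leaves quiescence, enlarges its machinery for making ribosomes and proteins, and may then copy its DNA and divide.

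Each read is a tag from the 3' end of a polyadenylated RNA. The normalized value is the deposited log2 value taken back to the linear scale, and values are given below for replicates 1, 2 and 3 in that order. They summed to 34145, 33901 and 34728 in the sham libraries, and to 36846, 37487 and 40618 in the imiquimod libraries. Every imiquimod sum was thus above every sham sum. Over the 6 wild-type libraries 2724 to 4808 genes were above 0. From the steps of the low values, the libraries held an estimated 20507 to 69454 gene reads, each worth 0.488 to 1.98. Imiquimod replicate 3 was the shallowest and sham replicate 2 the deepest, and a 0 in the latter can hide 1 or 2 reads. Gapdh, which every cell uses, was itself listed at 0 in sham replicate 3. Fold changes were estimated on log2(normalized value + 1), imiquimod over sham. Their median SE was 1.12 over all genes tested and 0.39 over the 47 genes with a mean of at least 50.

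The delta chain locus line Tcrd was at 65.8, 68.7 and 76.8 under sham cream, against 14.1, 30.5 and 19.8 under imiquimod. The gamma chain locus line Tcrg was at 34.8, 64.4 and 36.6 with sham, and at 11.5, 45.6 and 16.2 with imiquimod. Both receptor loci of the labelled cells were thus seen in all 6 libraries. The gamma constant line Tcrg-C2 was at 10.5, 17.0 and 28.3 in the sham libraries, and at 12.3, 22.3 and 18.8 in the imiquimod libraries. Cd3e, of the CD3 signalling complex of T cells, was listed at 0 in 4 of the 6, and Trdc, Tcrg-C1 and Tcrg-V4 in all 6, and a listed 0 does not show that a gene was absent. Trdv5, a delta variable segment, was at 2.80, 2.44 and 0 under sham cream and listed at 0 in the 3 imiquimod libraries. The beta chain locus line Tcrb, listed here for alpha beta T cells, was at 103, 88.6 and 73.0 with sham, and at 82.3, 66.7 and 57.4 with imiquimod, a log2 fold change of -0.35 ± 0.35 (SE; adjusted p = 0.606). The alpha chain line Tcra was at 7.38, 6.05 and 1.90 in the sham libraries, and at 0, 3.16 and 1.17 in the imiquimod libraries. Which cells gave the beta chain tags was not tested.

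Of the 1571 genes, 51 passed an adjusted p of 0.05 (3.25%), 26 higher under imiquimod (1.65%) and 25 lower (1.59%). By the gene lists described below, those that rose include 2 genes of DNA replication, 3 of mitosis, 3 of ribosome assembly, 3 of translation, 2 of mitochondrial energy supply and 1 chaperone each of the cytosol and the endoplasmic reticulum. Those that fell include T cell receptor signalling proteins, restraints on T cell growth, interferon-inducible genes, 2 Ms4a membrane proteins and the nuclear RNA Malat1. In 168 genes (10.7%) all 3 imiquimod values lay above all 3 sham values, and in 169 (10.8%) all lay below. Such genes are described below as apart upwards or apart downwards, and 49 of the 51 called genes were apart. The median fold change over all tested genes was -0.07. With every library scaled to the same total it was -0.25, and the calls were then 19 higher and 29 lower. Without imiquimod replicate 3 the calls were 13 higher and 30 lower, and without imiquimod replicate 2 they were 25 and 47. Without sham replicate 3 they were 13 and 10, and without imiquimod replicate 1 they were 11 and 13. A fit of the 6 wild-type libraries alone gave 19 higher and 9 lower, and 24 of these 28 were among the 51. The range beside the median of a gene list below covers these settings and the others for which it was computed.

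**Figure D1:**
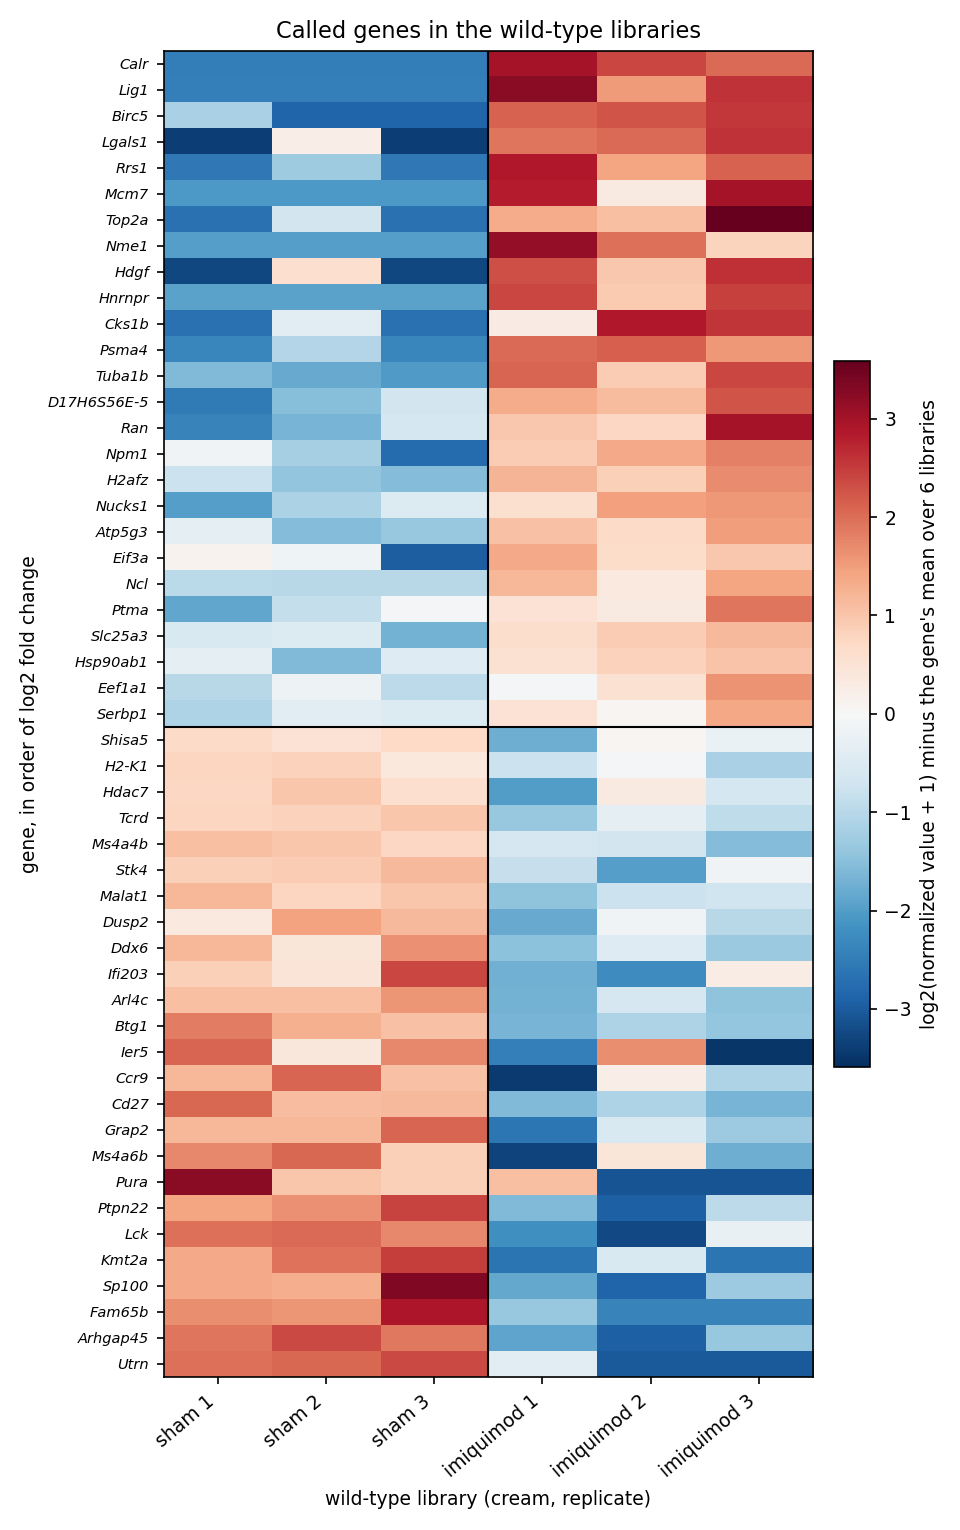
Each row is 1 of the 51 called genes and each column 1 wild-type library (3 sham, then 3 imiquimod), and colour gives log2(normalized value + 1) minus the gene's mean over the 6 libraries, red above and blue below. The 26 genes above the horizontal line were higher in imiquimod and the 25 below it lower, and in Ier5 and Pura the groups overlap.

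A group of 14 genes was called whichever of the 6 wild-type libraries was left out: Calr, Tuba1b, D17H6S56E-5, Npm1, Atp5g3, Ncl and Hsp90ab1 among those that rose, and H2-K1, Ms4a4b, Malat1, Btg1, Cd27, Lck and Utrn among those that fell. Calr, Tuba1b, Lck and Utrn were also called in each other setting that tested them. The remaining 37 lost their call without at least 1 library, and 0 of the 51 changed direction in any setting. There were 23 calls without sham replicate 3 and 24 without imiquimod replicate 1. A pseudocount of 0.1 gave 26 calls, and limma's eBayes step without its trend and robust options gave 18, of which 14 were among the 51. Without those options the adjusted p was 0.14 for Malat1 and Ncl, 0.24 for Hsp90ab1 and 0.29 for H2-K1. In the main fit, changes below 2 on the log2 scale could be resolved well only among abundant genes, such as Malat1 and Hsp90ab1. There 12 of the 47 genes with a mean of at least 50 were called.

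**Figure D2:**
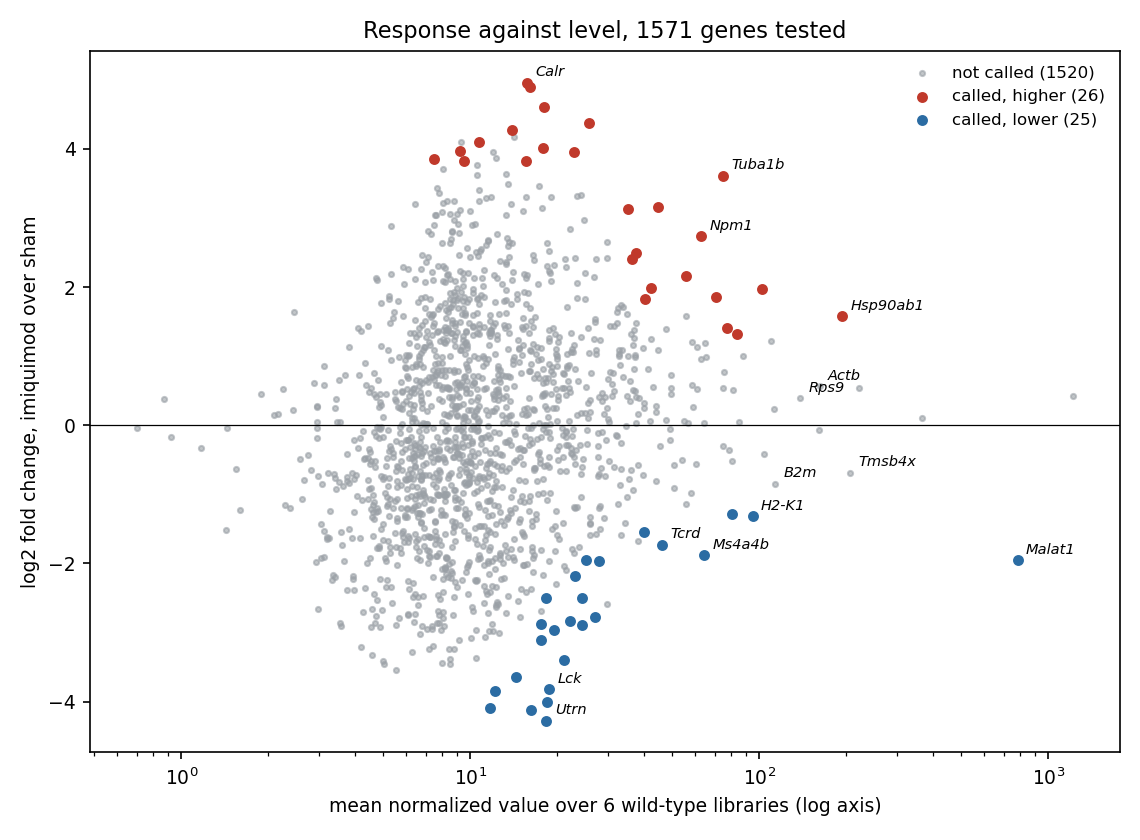
Each point is 1 of the 1571 tested genes, by its mean normalized value over the 6 wild-type libraries (log axis) and its log2 fold change, imiquimod over sham, with the 26 and 25 called genes in red and blue. Called changes are small only towards the right of the plot, among abundant genes such as Hsp90ab1 and Malat1.

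The promoters of 5 called genes are printed because each holds a short motif known from the group its gene belongs to. The sequences are the 250 bases before a transcript start, 5′ to 3′ on the gene's strand, from RefSeq on GRCm38.p6, with the motif in capitals on whichever strand it was found. Calr encodes calreticulin, a chaperone of the endoplasmic reticulum, and its window (chr8:84846932-84847181, minus strand) holds the endoplasmic reticulum stress element, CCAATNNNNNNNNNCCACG. Top2a encodes topoisomerase II alpha, which untangles chromosomes, and its window (chr11:99024190-99024439, minus strand) holds the cell cycle homology region TTTGAA at 2 places. Mcm7 encodes a subunit of the replicative helicase, and its window (chr5:138171884-138172133, minus strand) holds the E2F letters TTTCCCGC. Ran encodes the GTPase of nuclear transport, and its window (chr5:129019906-129020155, plus strand) holds the E-box CACGTG, which Myc with Max and other factors can bind. Btg1 encodes an antiproliferative protein, and its window (chr10:96616751-96617000, plus strand) holds the forkhead letters GTAAACA.
Calr: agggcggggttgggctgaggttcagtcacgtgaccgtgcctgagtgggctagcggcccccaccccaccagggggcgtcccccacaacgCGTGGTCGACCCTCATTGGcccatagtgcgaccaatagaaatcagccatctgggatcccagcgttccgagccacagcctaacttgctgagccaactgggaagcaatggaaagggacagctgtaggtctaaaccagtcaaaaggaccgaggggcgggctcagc
Top2a: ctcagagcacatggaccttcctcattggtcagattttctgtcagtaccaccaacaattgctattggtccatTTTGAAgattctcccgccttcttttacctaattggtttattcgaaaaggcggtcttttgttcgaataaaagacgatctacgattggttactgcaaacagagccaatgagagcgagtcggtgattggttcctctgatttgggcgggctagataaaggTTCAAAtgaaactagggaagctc
Mcm7: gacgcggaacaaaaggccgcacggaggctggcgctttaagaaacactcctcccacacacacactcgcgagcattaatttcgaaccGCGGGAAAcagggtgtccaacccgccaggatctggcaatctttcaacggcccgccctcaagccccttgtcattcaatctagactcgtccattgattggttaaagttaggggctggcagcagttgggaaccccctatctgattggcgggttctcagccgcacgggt
Ran: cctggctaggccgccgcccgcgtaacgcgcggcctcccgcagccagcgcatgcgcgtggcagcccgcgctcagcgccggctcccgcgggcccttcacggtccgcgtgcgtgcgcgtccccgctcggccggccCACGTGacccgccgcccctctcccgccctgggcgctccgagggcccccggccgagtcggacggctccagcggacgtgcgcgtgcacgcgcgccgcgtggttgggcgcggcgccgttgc
Btg1: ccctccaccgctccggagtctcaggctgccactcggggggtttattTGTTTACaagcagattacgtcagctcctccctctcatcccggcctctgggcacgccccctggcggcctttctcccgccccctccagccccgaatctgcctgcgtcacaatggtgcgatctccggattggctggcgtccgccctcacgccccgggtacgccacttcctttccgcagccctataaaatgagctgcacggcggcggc

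Windows were found for 44 of the 51 called genes, 22 in each direction, and for 1262 of the 1571 tested. On either strand, the E-box stood in 7 of 22 genes that rose (Calr, Nme1, Hdgf, Psma4, Ran, H2afz and Atp5g3) and in 4 of 22 that fell, against 11.6% of tested genes and 6.02% of all RefSeq windows of this length. The E2F letters stood in 3 of 22 genes that rose (Mcm7, Hnrnpr and D17H6S56E-5) and 0 of 22 that fell, against 2.46% of tested genes and 0.895% of windows. The forkhead letters stood in 0 of 22 and 3 of 22 (Hdac7, Btg1 and Grap2), against 2.69% and 3.17%. The cell cycle homology region stood in 4 of 22 and 4 of 22, against 12.3% and 16%. The interferon element letters GAAANNGAAA stood in 2 of 22 and 1 of 22, the latter Ifi203, against 3.80% and 2.98%. The box CCAAT, which is part of the endoplasmic reticulum stress element, stood in 9 of 22 and 7 of 22, against 41.0% and 33.8%. The full stress element stood in 1 of 22 and 0 of 22, against 0.555% and 0.113%. A gene was counted if any of its windows matched, so shares of genes and shares of windows are unlike measures. In the same order of motifs, the shares of all RefSeq genes with a window were 6.86%, 1.03%, 3.54%, 18.3%, 3.46%, 37.5% and 0.13%. These are matches of letters, and no test was made on them.

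Gene lists are described next by the counts and median fold change of their tested members, beside -0.07 for all genes tested. Of all 1571 genes tested, 756 (48.1%) had a positive fold change and 313 an unadjusted p under 0.05 by limma's test. Under the filter 6268 more genes were above 0, 2975 of them higher on average in imiquimod. A gene can stand in several lists. The filter uses the mean over all libraries, so a gene high only under imiquimod can pass through those libraries alone. Counts over tested members are therefore descriptions, and members under the filter are counted too. Members and lists were also chosen with earlier results of these data known, so the counts are no independent support. Tags from a gene and from near-identical copies or pseudogenes, or from an overlapping gene on the other strand, may not be separable, which bears on Tuba1b, Eef1a1, Npm1, Ptma, H2-K1 and the Ms4a genes. Where a group has a library at 0, the size of the fold change depends on the pseudocount. In bulk samples fewer cells of a kind and less RNA per cell cannot be told apart.

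**Figure D3:**
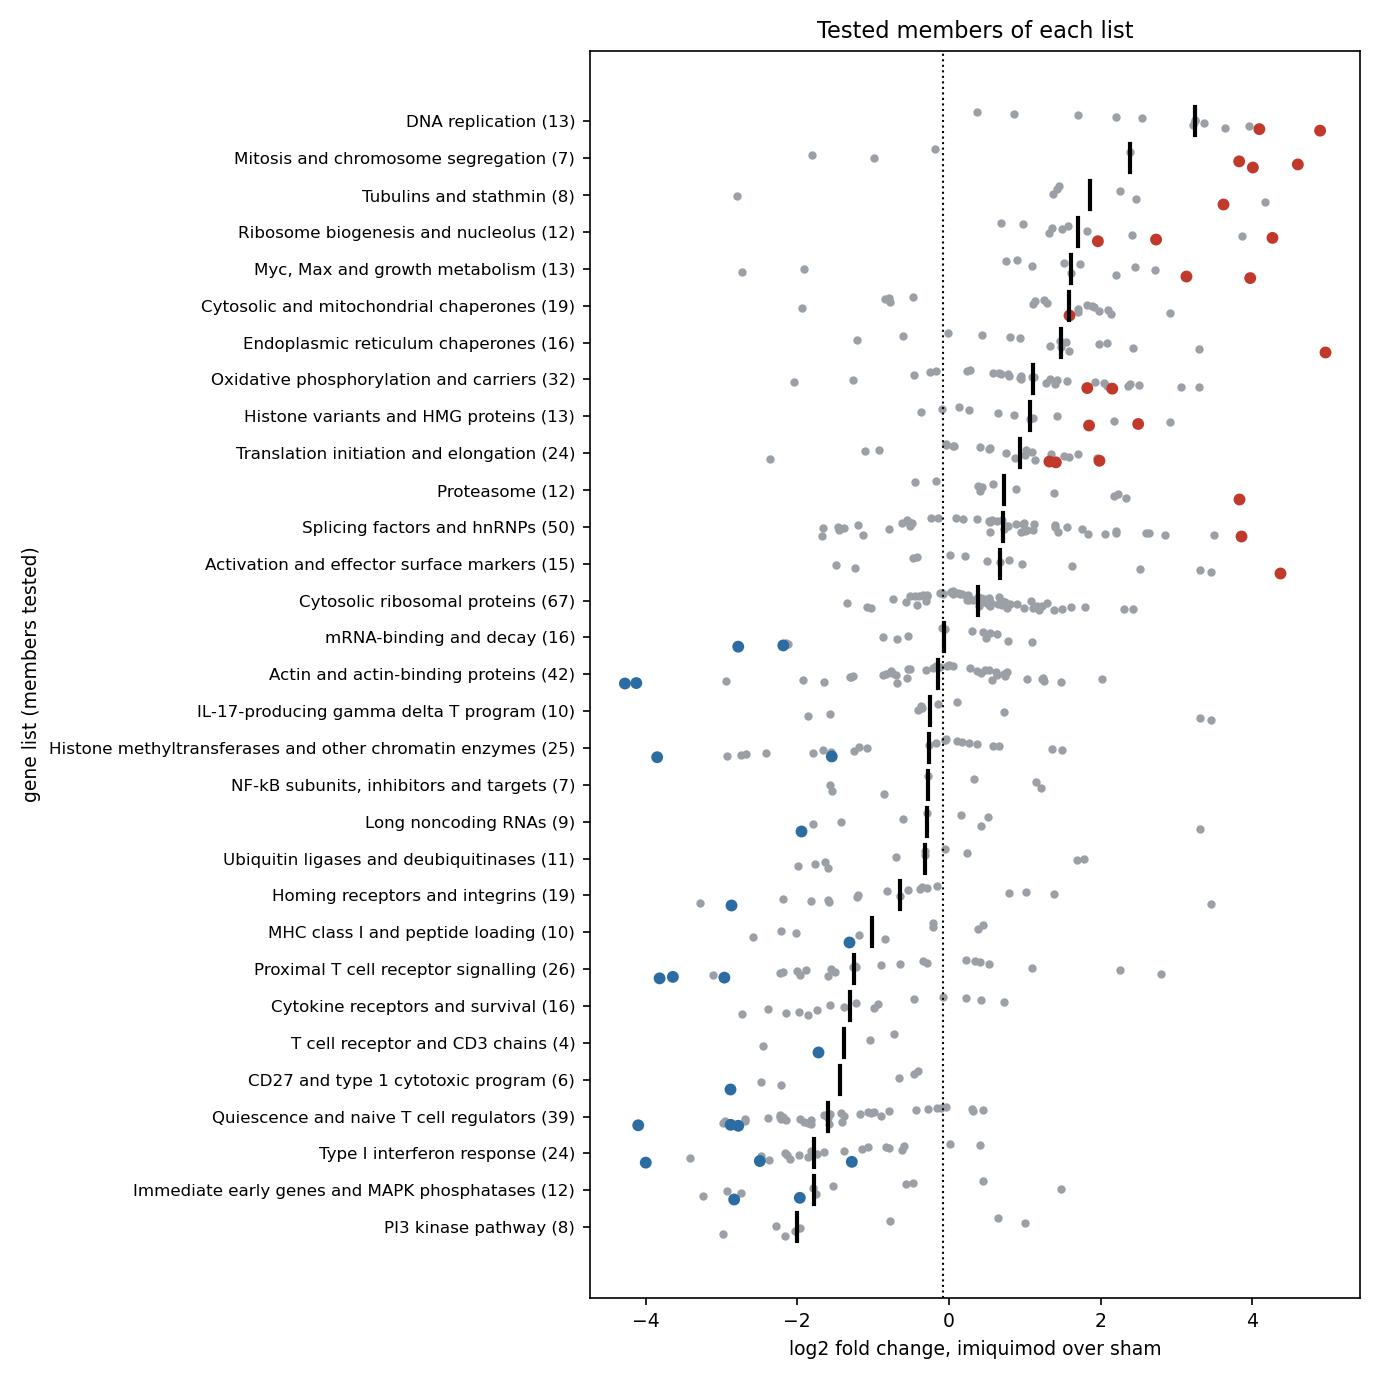
Each point is a tested gene by its log2 fold change, imiquimod over sham, in rows for the lists with at least 4 tested members (number tested in brackets), with called genes as large red and blue points, list medians as black bars and the median of all tested genes as a dotted line. The medians run from 3.24 for DNA replication to -2.00 for the PI3 kinase pathway.

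Genes of DNA replication stood higher under imiquimod in every tested member, and 2 passed the test. That every tested member was higher is a description, since a member high only under imiquimod can pass the filter through those libraries. Among the 24 members of the list above 0 under the filter, 6 were lower on average in imiquimod. In this list 13 of 47 listed members were tested, 13 with a positive and 0 with a negative fold change (median 3.24, between 1.19 and 5.46 over the settings; 24 more were above 0 under the filter, 18 of them higher on average in imiquimod), and 8 were apart upwards. Lig1, DNA ligase 1, which seals the fragments of the lagging strand (chr7:13277175-13311426), was listed at 0 in every sham library but at 50.3, 14.7 and 31.7 under imiquimod (adjusted p = 0.0145). Mcm7 was listed at 0 in every sham library but at 28.3, 4.21 and 31.7 with imiquimod (adjusted p = 0.0423). Each imiquimod library was above 0 for both genes, with imiquimod replicate 2 the lowest. The dUTPase gene Dut was at 6.71, 0 and 0 in the sham libraries, and at 32.5, 16.8 and 23.8 in the imiquimod libraries (adjusted p = 0.0673). Hells, a chromatin remodeller of dividing cells, was at 0, 0 and 1.24 under sham cream, against 41.9, 20.001 and 8.36 under imiquimod (adjusted p = 0.103). The histone chaperone gene Nasp was at 0, 2.44 and 0 with sham, and at 16.8, 5.26 and 23.8 with imiquimod (adjusted p = 0.104). These and Pcna were apart upwards without a call. Pcna, the sliding clamp of DNA polymerases, was at 0, 2.30 and 0 in the sham libraries, and at 11.4, 12.1 and 21.1 in the imiquimod libraries (adjusted p = 0.129). With 1 library left out, Lig1 lost its call without imiquimod replicate 1 (adjusted p 0.0835), and Mcm7 kept its call only without imiquimod replicate 2 (adjusted p up to 0.162 without each of the others).

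In the list of mitosis and chromosome segregation, 3 genes rose. Here 7 of 48 listed members were tested, 4 with a positive and 3 with a negative fold change (median 2.38, between 1.19 and 2.81 over the settings; 33 more were above 0 under the filter, 29 of them higher on average in imiquimod). Birc5, survivin, part of the chromosomal passenger complex that guides chromosome separation (chr11:117849237-117855743), was at 2.24, 0 and 0 under sham cream, against 30.4, 33.7 and 41.6 under imiquimod, a log2 fold change of 4.60 ± 1.33 (SE; adjusted p = 0.031). Top2a (chr11:98992947-99024199) was at 0, 3.08 and 0 with sham, and at 15.2, 12.6 and 76.1 with imiquimod, a log2 fold change of 4.01 ± 1.16 (SE; adjusted p = 0.031). Cks1b, a small subunit of cyclin-dependent kinases (chr3:89415472-89418291), was at 0, 3.80 and 0 in the sham libraries, and at 6.81, 45.8 and 36.6 in the imiquimod libraries, a log2 fold change of 3.83 ± 1.16 (SE; adjusted p = 0.0423). The groups of all 3 genes were apart, with Top2a highest in imiquimod replicate 3 and Cks1b lowest in imiquimod replicate 1. Members without a call lay on both sides. Smc2, a subunit of condensin, was at 1.12, 3.23 and 6.21 under sham cream, against 31.4, 10.5 and 23.5 under imiquimod (adjusted p = 0.296). Its partner Smc4 was at 47.0, 79.3 and 104 with sham, and at 30.8, 26.0 and 59.6 with imiquimod (adjusted p = 0.139). Smc2 was apart upwards, and Smc4 overlapped between the creams. Ccnd2, a D-type cyclin, was at 28.0, 36.2 and 16.8 in the sham libraries, and at 9.43, 2.11 and 12.9 in the imiquimod libraries (adjusted p = 0.165). Ccnd3, another D-type cyclin, was at 40.4, 8.61 and 0 under sham cream, against 5.76, 4.74 and 5.94 under imiquimod (adjusted p = 0.935). Mki67, a marker of cycling cells, was under the filter, listed at 0 in every sham library but at 11.2, 5.79 and 0 with imiquimod. Over fits that each left out 1 library, Birc5 kept its call only without sham replicate 1 (adjusted p up to 0.0989 without each of the others), and Top2a kept its call only without sham replicate 2 or imiquimod replicate 2 (adjusted p up to 0.186 without each of the others). Likewise, Cks1b kept its call only without sham replicate 2 or imiquimod replicate 1 (adjusted p up to 0.144 without each of the others).

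Tuba1b, an alpha tubulin of the microtubules (chr15:98931429-98934390), rose and was at 11.2, 9.52 and 8.07 in the sham libraries, and at 156, 68.6 and 194 in the imiquimod libraries, a log2 fold change of 3.61 ± 0.53 (SE; adjusted p = 1.73e-07). Imiquimod replicate 2 was the lowest of its group and still far above the sham libraries. In the tubulin and stathmin list 8 of 15 listed members were tested, 7 with a positive and 1 with a negative fold change (median 1.86, between 0.97 and 3.02 over the settings; 2 more were above 0 under the filter, 2 of them higher on average in imiquimod). Stmn1, stathmin, which takes microtubules apart, was at 0, 1.46 and 0 under sham cream, against 13.97, 16.8 and 52.5 under imiquimod (adjusted p = 0.0835). Tuba1c, a close copy of Tuba1b, was at 11.2, 8.28 and 0 with sham, and at 17.8, 30.0 and 31.7 with imiquimod (adjusted p = 0.133). Tuba4a was at 17.3, 18.8 and 21.1 in the sham libraries, and at 79.1, 32.5 and 51.5 in the imiquimod libraries (adjusted p = 0.186). All of these were apart upwards. Tuba1a lay the other way, at 5.03, 13.2 and 13.0 under sham cream, against 0, 2.63 and 0 under imiquimod (adjusted p = 0.148).

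Proteins that build ribosomes in the nucleolus came next, with 3 members that rose. In the ribosome biogenesis list 12 of 45 listed members were tested, 12 with a positive and 0 with a negative fold change (median 1.70, between 0.74 and 2.60 over the settings; 30 more were above 0 under the filter, 19 of them higher on average in imiquimod), and 7 were apart upwards. Ncl, nucleolin, which acts on ribosomal RNA (chr1:86344719-86359455), was at 39.7, 39.3 and 39.1 with sham, and at 180.4, 100.2 and 212 with imiquimod, a log2 fold change of 1.96 ± 0.36 (SE; adjusted p = 0.000101). Npm1, nucleophosmin, a nucleolar chaperone (chr11:33152498-33164142), was at 35.8, 16.6 and 4.97 in the sham libraries, and at 74.9, 104 and 142 in the imiquimod libraries, a log2 fold change of 2.73 ± 0.52 (SE; adjusted p = 0.000143). Rrs1, an assembly factor of the large ribosomal subunit (chr1:9545408-9547455), was at 0, 1.46 and 0 under sham cream, against 42.4, 14.7 and 24.8 under imiquimod, a log2 fold change of 4.27 ± 1.13 (SE; adjusted p = 0.0145). The sham libraries lay close together for Ncl and spread widely for Npm1, and the groups of all 3 genes were apart. The nucleolar gene Lyar was at 0, 0 and 1.24 with sham, and at 5.24, 25.3 and 41.6 with imiquimod (adjusted p = 0.071). Nop58, a core protein of the particles that methylate ribosomal RNA, was at 10.1, 13.7 and 1.24 in the sham libraries, and at 47.7, 33.7 and 31.7 in the imiquimod libraries (adjusted p = 0.103). When single libraries were left out, Rrs1 lost its call without sham replicate 1, sham replicate 3 or imiquimod replicate 1 (adjusted p up to 0.0894).

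The ribosomal proteins themselves gave no call. In their list 67 of 82 listed members were tested, 50 with a positive and 17 with a negative fold change (median 0.39, between 0.24 and 0.51 over the settings; 13 more were above 0 under the filter, 7 of them higher on average in imiquimod), and 0 passed limma's test, with 5 at an unadjusted p under 0.05. Groups were apart upwards in 12 members and downwards in 2. Rpl7, of the large subunit, was at 18.3, 27.9 and 23.6 under sham cream, against 35.5, 50.4 and 129.7 under imiquimod (adjusted p = 0.111). Rps26, of the small subunit, was at 39.8, 32.7 and 41.0 with sham, and at 129, 56.2 and 90.1 with imiquimod (adjusted p = 0.13). Rps9, among the 10 most abundant lines of the sham libraries, was at 122, 98.5 and 136 in the sham libraries, and at 155, 125 and 193 in the imiquimod libraries, a log2 fold change of 0.40 ± 0.29 (SE; adjusted p = 0.477). Its groups overlapped.

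Translation factors gave 3 genes that rose. In the initiation and elongation list 24 of 44 listed members were tested, 19 with a positive and 5 with a negative fold change (median 0.94, between 0.44 and 1.10 over the settings; 18 more were above 0 under the filter, 12 of them higher on average in imiquimod). Eef1a1, elongation factor 1 alpha, which brings aminoacyl-tRNA to the ribosome (chr9:78478453-78481724), was at 30.7, 55.2 and 31.98 under sham cream, against 60.6, 92.1 and 192 under imiquimod, a log2 fold change of 1.41 ± 0.39 (SE; adjusted p = 0.0224). Eif3a, a subunit of initiation factor 3 (chr19:60761116-60790693), was at 33.5, 27.3 and 3.11 with sham, and at 80.7, 48.7 and 60.4 with imiquimod, a log2 fold change of 1.99 ± 0.59 (SE; adjusted p = 0.0382). Serbp1, an RNA-binding protein found on ribosomes (chr6:67266979-67289302), was at 32.4, 53.7 and 50.7 in the sham libraries, and at 103, 74.7 and 188 in the imiquimod libraries, a log2 fold change of 1.33 ± 0.39 (SE; adjusted p = 0.0358). Imiquimod replicate 3 was the highest library for Eef1a1 and Serbp1, and sham replicate 3 the lowest for Eif3a. The poly(A)-binding protein gene Pabpc1 was at 20.8, 40.4 and 51.4 under sham cream, against 116, 90.9 and 45.6 under imiquimod (adjusted p = 0.133). Across fits without 1 library each, Eef1a1 lost its call without sham replicate 1, sham replicate 3 or imiquimod replicate 3 (adjusted p up to 0.199), and Eif3a kept its call only without sham replicate 1 or sham replicate 2 (adjusted p up to 0.382 without each of the others). Likewise, Serbp1 kept its call only without sham replicate 2 or imiquimod replicate 2 (adjusted p up to 0.203 without each of the others).

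A list around Myc and growth metabolism held 2 genes that rose. There 13 of 35 listed members were tested, 11 with a positive and 2 with a negative fold change (median 1.61, between 0.84 and 2.02 over the settings; 17 more were above 0 under the filter, 9 of them higher on average in imiquimod). Ran (chr5:129020156-129024322) was at 2.24, 4.39 and 9.94 with sham, and at 32.5, 27.4 and 135 with imiquimod, a log2 fold change of 3.13 ± 0.95 (SE; adjusted p = 0.0423). Nme1, a nucleoside diphosphate kinase that supplies nucleotides (chr11:93958925-93968272), was listed at 0 in every sham library but at 34.6, 14.7 and 5.94 in the imiquimod libraries (adjusted p = 0.0358). Ran stood highest in imiquimod replicate 3 and Nme1 in imiquimod replicate 1, and the groups of both were apart. Ranbp1, a partner of Ran, was at 0, 3.90 and 0 under sham cream, against 0, 25.9 and 50.5 under imiquimod (adjusted p = 0.195). Max, the partner of Myc on DNA, was at 19.6, 15.1 and 25.5 with sham, and at 9.43, 14.7 and 0 with imiquimod (adjusted p = 0.272). Mnt, a repressor that also pairs with Max, was at 0, 9.27 and 27.3 in the sham libraries and listed at 0 in the 3 imiquimod libraries (adjusted p = 0.186). Of these, Max alone was apart, downwards. With 1 library left out, Ran kept its call only without imiquimod replicate 2 (adjusted p up to 0.226 without each of the others), and Nme1 kept its call only without imiquimod replicate 3 (adjusted p up to 0.185 without each of the others).

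Among splicing factors and hnRNPs 50 of 62 listed members were tested, 35 with a positive and 15 with a negative fold change (median 0.72, between 0.42 and 0.78 over the settings; 11 more were above 0 under the filter, 9 of them higher on average in imiquimod), with 12 apart upwards and 2 downwards. Hnrnpr, which binds nuclear RNA (chr4:136310942-136345981), rose and was listed at 0 in every sham library but at 18.9, 6.32 and 19.8 under imiquimod (adjusted p = 0.0485). Over fits that each left out 1 library, Hnrnpr kept its call only without imiquimod replicate 2 (adjusted p up to 0.149 without each of the others). Syncrip, a close relative of Hnrnpr, was at 11.2, 9.03 and 0 with sham, and at 28.3, 24.7 and 59.1 with imiquimod (adjusted p = 0.0762). Snrpd1, a core protein of the spliceosomal particles, was at 2.24, 1.71 and 0 in the sham libraries, and at 26.2, 41.1 and 9.90 in the imiquimod libraries (adjusted p = 0.0951). Both were apart upwards, and the next members downwards. The serine- and arginine-rich factor gene Srsf5 was at 78.9, 71.3 and 73.5 under sham cream, against 17.8, 38.9 and 52.9 under imiquimod (adjusted p = 0.119). Rbm25, a regulator of alternative splicing, was at 54.2, 55.5 and 58.4 with sham, and at 17.9, 33.2 and 7.92 with imiquimod (adjusted p = 0.071).

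Nuclear-encoded genes of mitochondrial energy supply included 2 that rose. In that list 32 of 78 listed members were tested, 27 with a positive and 5 with a negative fold change (median 1.11, between 0.73 and 1.54 over the settings; 40 more were above 0 under the filter, 30 of them higher on average in imiquimod), with 9 apart upwards and 0 downwards. Atp5g3, the membrane ring subunit of ATP synthase (chr2:73908447-73912464), was at 33.0, 13.4 and 15.5 in the sham libraries, and at 87.0, 67.4 and 118 in the imiquimod libraries, a log2 fold change of 2.15 ± 0.49 (SE; adjusted p = 0.00284). Slc25a3, the phosphate carrier of the inner membrane (chr10:91116574-91124046), was at 21.8, 22.5 and 9.32 under sham cream, against 50.8, 62.1 and 74.1 under imiquimod, a log2 fold change of 1.83 ± 0.54 (SE; adjusted p = 0.0358). In both genes every imiquimod library was above every sham library by a wide margin. Atp5k, another ATP synthase subunit, was at 0, 8.05 and 0 with sham, and at 25.2, 14.7 and 19.8 with imiquimod (adjusted p = 0.0951). Cox8a, of cytochrome c oxidase, was at 4.47, 0 and 0 in the sham libraries, and at 9.96, 31.4 and 7.92 in the imiquimod libraries (adjusted p = 0.13). Of 20 glycolysis genes 2 were tested, both apart upwards without a call. Ldha, lactate dehydrogenase, was at 11.2, 21.5 and 18.01 under sham cream, against 48.2, 42.1 and 68.3 under imiquimod (adjusted p = 0.133). Pkm, pyruvate kinase, was at 1.12, 8.79 and 0 with sham, and at 14.7, 24.04 and 9.90 with imiquimod (adjusted p = 0.191). When single libraries were left out, Slc25a3 kept its call only without sham replicate 1 or sham replicate 2 (adjusted p up to 0.181 without each of the others).

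Chaperones, which fold proteins, included 2 genes that rose. Of the endoplasmic reticulum chaperones 16 of 27 listed members were tested, 13 with a positive and 3 with a negative fold change (median 1.47, between 0.69 and 1.77 over the settings; 7 more were above 0 under the filter, 5 of them higher on average in imiquimod). Calr (chr8:84842088-84846931) was listed at 0 in every sham library but at 43.5, 28.6 and 21.8 in the imiquimod libraries (adjusted p = 0.00284). Hspa5, the main luminal Hsp70 of that compartment, was at 10.1, 23.9 and 59.6 under sham cream, against 70.2, 51.6 and 119 under imiquimod, a log2 fold change of 1.58 ± 0.49 (adjusted p = 0.0503). Pdia3, a disulfide isomerase that works with calreticulin, was at 4.47, 5.86 and 0 with sham, and at 49.3, 35.2 and 18.8 with imiquimod, a change of 3.30 ± 1.05 (adjusted p = 0.0554). Both lay just outside the call, and Hspa5 overlapped between the creams through sham replicate 3. Canx, calnexin, was at 3.35, 0 and 11.8 in the sham libraries, and at 36.2, 20.5 and 9.90 in the imiquimod libraries (adjusted p = 0.154). Hsp90b1, the Hsp90 of the same compartment, was at 23.9, 7.35 and 19.3 under sham cream, against 47.7, 69.5 and 25.7 under imiquimod (adjusted p = 0.155). Of the cytosolic and mitochondrial chaperones 19 of 31 listed members were tested, 14 with a positive and 5 with a negative fold change (median 1.58, between 0.68 and 2.17 over the settings; 11 more were above 0 under the filter, 7 of them higher on average in imiquimod). Hsp90ab1, the constitutive cytosolic Hsp90 (chr17:45567778-45573261), was at 130.1, 53.9 and 117 with sham, and at 236, 287 and 332 with imiquimod, a log2 fold change of 1.58 ± 0.31 (SE; adjusted p = 0.000175). Its groups were apart, with sham replicate 2 the lowest library. Hspe1, the mitochondrial co-chaperonin, was at 4.47, 12.9 and 6.83 in the sham libraries, and at 40.5, 13.7 and 82.7 in the imiquimod libraries (adjusted p = 0.103). The chaperonin subunit gene Cct8 was at 10.1, 3.42 and 17.4 under sham cream, against 49.8, 19.5 and 29.1 under imiquimod (adjusted p = 0.192).

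The proteasome list held 1 gene that rose, and there 12 of 38 listed members were tested, 10 with a positive and 2 with a negative fold change (median 0.73, between 0.30 and 1.14 over the settings; 26 more were above 0 under the filter, 14 of them higher on average in imiquimod). Psma4, a subunit of the proteasome core (chr9:54950781-54958034), was at 0, 1.46 and 0 with sham, and at 19.9, 21.6 and 13.9 with imiquimod, a log2 fold change of 3.83 ± 1.11 (SE; adjusted p = 0.0327). Psma1 of the same ring was at 0, 3.42 and 14.3 in the sham libraries, and at 31.4, 14.7 and 15.8 in the imiquimod libraries (adjusted p = 0.203). Psma4 was apart upwards and low in all sham libraries. Among histone variants and HMG-type proteins of chromatin 13 of 24 listed members were tested, 11 with a positive and 2 with a negative fold change (median 1.07, between 0.67 and 1.36 over the settings; 9 more were above 0 under the filter, 5 of them higher on average in imiquimod), and 2 rose. H2afz, the histone variant H2A.Z (chr3:137864487-137866922), was at 14.6, 9.07 and 8.07 under sham cream, against 60.8, 47.0 and 85.5 under imiquimod, a log2 fold change of 2.50 ± 0.65 (SE; adjusted p = 0.0136). Ptma, prothymosin alpha, an acidic nuclear protein that binds histones (chr1:86526557-86530712), was at 13.5, 28.0 and 48.8 with sham, and at 74.5, 64.8 and 195 with imiquimod, a log2 fold change of 1.85 ± 0.46 (SE; adjusted p = 0.00858). Both were apart, and Ptma was far the highest in imiquimod replicate 3. Hmgb2, a DNA-bending protein, was at 15.1, 7.66 and 0 in the sham libraries, and at 34.9, 19.2 and 16.8 in the imiquimod libraries (adjusted p = 0.272). Across fits without 1 library each, Psma4 kept its call only without sham replicate 2 or imiquimod replicate 3 (adjusted p up to 0.0989 without each of the others), and H2afz lost its call without sham replicate 3, imiquimod replicate 1 or imiquimod replicate 3 (adjusted p up to 0.0697). Likewise, Ptma lost its call without sham replicate 1 or imiquimod replicate 3 (adjusted p up to 0.131).

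Among activation and effector markers 15 of 40 listed members were tested, 11 with a positive and 4 with a negative fold change (median 0.67, between 0.39 and 1.17 over the settings; 13 more were above 0 under the filter, 5 of them higher on average in imiquimod). Lgals1, galectin 1, a carbohydrate-binding protein made by activated T cells (chr15:78926725-78930465), was at 0, 11.2 and 0 under sham cream, against 38.8, 41.6 and 62.4 under imiquimod, a log2 fold change of 4.37 ± 1.16 (SE; adjusted p = 0.0145). It rose, and its groups were apart. Cd44, an adhesion receptor raised on activated T cells, was at 1.12, 8.05 and 0 with sham, and at 19.1, 22.1 and 53.5 with imiquimod, a change of 3.46 ± 1.13 (adjusted p = 0.0706). Icos, an inducible costimulatory receptor, was at 0, 9.19 and 0 in the sham libraries, and at 17.8, 22.1 and 21.8 in the imiquimod libraries, a change of 3.31 ± 1.14 (adjusted p = 0.0835). Both were apart upwards without passing the test, with sham replicate 2 the highest of the sham libraries. Vim, vimentin, stood out in imiquimod replicate 1 alone and was at 1.12, 7.55 and 0 under sham cream, against 90.1, 11.6 and 1.98 under imiquimod (adjusted p = 0.176). With 1 library left out, Lgals1 kept its call only without sham replicate 2 or imiquimod replicate 2 (adjusted p up to 0.0989 without each of the others).

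Genes outside the lists that rose were Hdgf, Nucks1 and D17H6S56E-5. Hdgf, a heparin-binding growth factor that also acts in the nucleus (chr3:87906090-87916132), was at 0, 13.7 and 0 with sham, and at 47.2, 17.9 and 58.4 with imiquimod, a log2 fold change of 3.95 ± 1.05 (SE; adjusted p = 0.0145). Nucks1, a nuclear phosphoprotein (chr1:131910458-131936321), was at 5.59, 10.7 and 17.4 in the sham libraries, and at 37.7, 70.5 and 75.3 in the imiquimod libraries, a log2 fold change of 2.41 ± 0.66 (SE; adjusted p = 0.0221). D17H6S56E-5 (chr17:34996678-35000774) was at 3.35, 7.81 and 15.3 under sham cream, against 63.4, 54.7 and 122 under imiquimod, a log2 fold change of 3.15 ± 0.59 (SE; adjusted p = 0.000101). In all 3 genes the groups were apart, and imiquimod replicate 3 was the highest library. Over fits that each left out 1 library, Hdgf kept its call only without sham replicate 2 or imiquimod replicate 2 (adjusted p up to 0.0958 without each of the others), and Nucks1 lost its call without sham replicate 1, imiquimod replicate 2 or imiquimod replicate 3 (adjusted p up to 0.106).

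**Figure D4:**
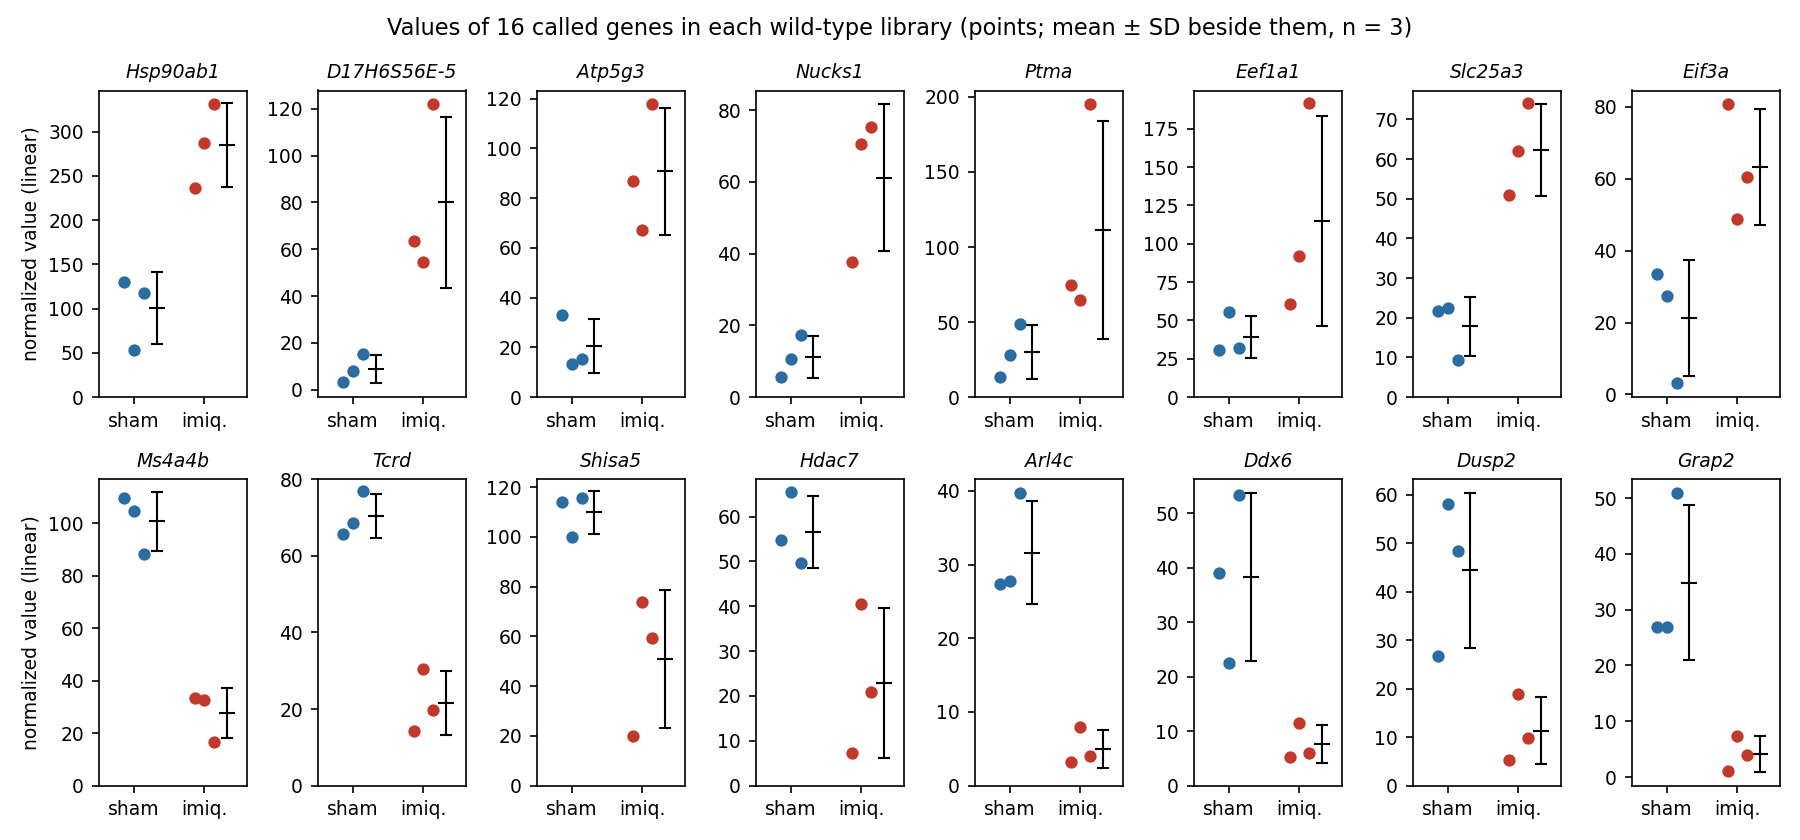
Points are the normalized values of 16 called genes in the 3 sham (blue) and 3 imiquimod (red) wild-type libraries on linear axes, with the mean ± SD of each group beside them. The upper 8 genes rose and the lower 8 fell, and in none of the 16 do the points of the groups overlap.

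Receptor chains and their signalling proteins lay mostly on the lower side. Of receptor and CD3 chains 4 of 10 listed members were tested, 0 with a positive and 4 with a negative fold change (median -1.39, between -1.76 and -0.76 over the settings; 3 more were above 0 under the filter, 0 of them higher on average in imiquimod). Tcrd (chr14:53946073-54159198) fell, with the values given above and a log2 fold change of -1.73 ± 0.43 (SE; adjusted p = 0.00905), and its groups were apart. Tcrg had a change of -1.05 ± 0.48 (adjusted p = 0.193) with overlapping groups, and the gamma constant line Tcrg-C2 one of 0.01 ± 0.87 (adjusted p = 0.997). Cd3d, of the CD3 complex, was at 8.05, 21.2 and 17.4 with sham, and at 0, 0 and 21.8 with imiquimod (adjusted p = 0.154). Cd247, its zeta chain, was at 5.59, 6.35 and 8.69 in the sham libraries, and at 5.24, 0 and 15.8 in the imiquimod libraries (adjusted p = 0.797). Both overlapped through imiquimod replicate 3. In the proximal signalling list 26 of 49 listed members were tested, 7 with a positive and 19 with a negative fold change (median -1.25, between -1.82 and -0.40 over the settings; 17 more were above 0 under the filter, 6 of them higher on average in imiquimod), and 3 fell. Lck, the kinase that first phosphorylates the receptor complex (chr4:129548344-129573641), was at 36.5, 37.6 and 30.4 under sham cream, against 1.05, 0 and 6.93 under imiquimod, a log2 fold change of -3.82 ± 0.76 (SE; adjusted p = 0.00029). Grap2, the adaptor Gads, which joins LAT to SLP-76 (chr15:80572597-80652854), was at 26.8, 26.8 and 50.9 with sham, and at 1.05, 7.37 and 3.96 with imiquimod, a log2 fold change of -2.96 ± 0.77 (SE; adjusted p = 0.0131). Ptpn22, a phosphatase that restrains Lck (chr3:103856575-103912252), was at 19.2, 22.7 and 39.7 in the sham libraries, and at 1.53, 0 and 2.96 in the imiquimod libraries, a log2 fold change of -3.64 ± 1.07 (SE; adjusted p = 0.0358). In all 3 genes each imiquimod library was below each sham library. When single libraries were left out, Tcrd lost its call without sham replicate 3 or imiquimod replicate 1 (adjusted p up to 0.061), and Grap2 lost its call without sham replicate 3 or imiquimod replicate 1 (adjusted p up to 0.105). Likewise, Ptpn22 kept its call only without imiquimod replicate 3 (adjusted p up to 0.144 without each of the others).

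Further signalling members had no call. Ptprc, the phosphatase CD45, was at 35.2, 59.9 and 54.5 under sham cream, against 16.8, 22.1 and 9.90 under imiquimod (adjusted p = 0.0628). Dgka, a diacylglycerol kinase that dampens signalling, was at 33.2, 29.6 and 23.6 with sham, and at 2.10, 16.8 and 6.93 with imiquimod (adjusted p = 0.0835). Skap1, an adaptor that acts on integrins, was at 20.1, 14.1 and 16.1 in the sham libraries, and at 3.14, 1.05 and 0 in the imiquimod libraries (adjusted p = 0.0851). These 3 were apart downwards. Ptprcap, a protein bound to CD45, lay the other way, at 0, 7.32 and 0 under sham cream, against 7.34, 25.3 and 11.9 under imiquimod (adjusted p = 0.143).

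Regulators of quiescence lay mostly on the lower side, and 3 fell. There 39 of 51 listed members were tested, 3 with a positive and 36 with a negative fold change (median -1.59, between -2.26 and -0.68 over the settings; 11 more were above 0 under the filter, 3 of them higher on average in imiquimod), with 0 apart upwards and 16 downwards. Btg1, which slows proliferation and helps shorten mRNA tails (chr10:96617001-96622813), was at 64.3, 42.7 and 36.6 with sham, and at 4.72, 7.37 and 5.94 with imiquimod, a log2 fold change of -2.78 ± 0.60 (SE; adjusted p = 0.00108). Fam65b, an inhibitor of the GTPase RhoA (chr13:24501524-24733806), was at 15.7, 14.6 and 38.5 in the sham libraries, and at 1.05, 0 and 0 in the imiquimod libraries, a log2 fold change of -4.10 ± 1.08 (SE; adjusted p = 0.0145). Ccr9, the receptor for the chemokine CCL25 (chr9:123767211-123783457), was at 23.5, 44.9 and 21.1 under sham cream, against 0, 11.6 and 3.96 under imiquimod, a log2 fold change of -2.88 ± 0.84 (SE; adjusted p = 0.0327). Among the imiquimod libraries Ccr9 was highest in replicate 2, and the groups of all 3 genes were apart. Foxp1, a forkhead factor that holds T cells at rest, was at 36.9, 31.7 and 17.9 with sham, and at 1.05, 13.7 and 16.8 with imiquimod (adjusted p = 0.0835). Foxo1, of the same family, was at 12.3, 21.5 and 27.3 in the sham libraries, and at 1.05, 7.37 and 0 in the imiquimod libraries (adjusted p = 0.103). Ikzf1, Ikaros, was at 44.2, 37.9 and 33.4 under sham cream, against 8.38, 9.47 and 21.8 under imiquimod (adjusted p = 0.0954). These and Bcl11b were apart downwards without a call. Bcl11b, a factor of T cell identity, was at 73.4, 42.0 and 36.0 with sham, and at 21.5, 13.2 and 18.8 with imiquimod (adjusted p = 0.105). Across fits without 1 library each, Fam65b lost its call without sham replicate 3 (adjusted p 0.108), and Ccr9 kept its call only without imiquimod replicate 2 or imiquimod replicate 3 (adjusted p up to 0.172 without each of the others).

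Genes that interferon induces in many cells lay mostly on the lower side, and 3 fell. In this list 24 of 64 listed members were tested, 2 with a positive and 22 with a negative fold change (median -1.78, between -2.25 and -0.76 over the settings; 34 more were above 0 under the filter, 10 of them higher on average in imiquimod), with 0 apart upwards and 8 downwards. Sp100, a nuclear body protein (chr1:85649948-85709998), was at 17.9, 17.1 and 72.0 in the sham libraries, and at 1.05, 0 and 1.98 in the imiquimod libraries, a log2 fold change of -4.00 ± 0.93 (SE; adjusted p = 0.00338). Ifi203, of the family of interferon-inducible nucleic acid sensors (chr1:173920400-173942866), was at 26.3, 19.8 and 77.6 under sham cream, against 3.49, 2.11 and 16.8 under imiquimod, a log2 fold change of -2.49 ± 0.76 (SE; adjusted p = 0.0423). Shisa5, a membrane protein of the endoplasmic reticulum (chr9:109038567-109057792), was at 114, 100.1 and 116 with sham, and at 19.9, 73.7 and 59.4 with imiquimod, a log2 fold change of -1.28 ± 0.36 (SE; adjusted p = 0.0224). Sham replicate 3 was the highest library for Sp100 and Ifi203, and the groups of all 3 genes were apart. Irf1, a transcription factor of the response, was at 20.1, 19.0 and 30.4 in the sham libraries, and at 2.10, 7.37 and 1.98 in the imiquimod libraries (adjusted p = 0.072). The exonuclease gene Isg20 was at 11.2, 6.35 and 12.4 under sham cream and listed at 0 in the 3 imiquimod libraries (adjusted p = 0.103). Both were apart downwards, while the next members overlapped through imiquimod replicate 2. Epsti1 was at 8.94, 31.7 and 31.1 with sham, and at 2.10, 23.2 and 0 with imiquimod (adjusted p = 0.0642). Slfn5 was at 35.8, 34.7 and 24.2 in the sham libraries, and at 1.05, 26.3 and 6.602 in the imiquimod libraries (adjusted p = 0.0835). With 1 library left out, Sp100 lost its call without sham replicate 3 (adjusted p 0.101), and Ifi203 kept its call only without sham replicate 2 or imiquimod replicate 3 (adjusted p up to 0.27 without each of the others). Likewise, Shisa5 lost its call without sham replicate 1, sham replicate 3 or imiquimod replicate 1 (adjusted p up to 0.28).

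In the MHC class I list 10 of 22 listed members were tested, 2 with a positive and 8 with a negative fold change (median -1.01, between -1.28 and -0.62 over the settings; 12 more were above 0 under the filter, 4 of them higher on average in imiquimod). H2-K1, a classical heavy chain that presents peptides (chr17:33996012-34000619), was at 143, 149.6 and 108 under sham cream, against 48.2, 80.9 and 37.0 under imiquimod, a log2 fold change of -1.32 ± 0.31 (SE; adjusted p = 0.00338). It fell, and its groups were apart. B2m, the light chain shared by class I molecules, was at 133, 144 and 157 with sham, and at 102, 72.7 and 68.7 with imiquimod, a change of -0.84 ± 0.29 (adjusted p = 0.0849), apart downwards without a call. H2-Q7, a nonclassical heavy chain, was at 25.2, 33.7 and 34.8 in the sham libraries, and at 15.7, 6.32 and 21.8 in the imiquimod libraries (adjusted p = 0.181). Tap2, a subunit of the peptide transporter, was at 12.3, 8.79 and 12.4 under sham cream, against 0, 25.3 and 0 under imiquimod (adjusted p = 0.24). For Tap2 imiquimod replicate 2 was the highest of all 6 libraries.

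Cd27, a costimulatory receptor of the TNF receptor family that marks interferon-producing gamma delta T cells (chr6:125232620-125237136), fell and was at 64.3, 32.7 and 34.2 with sham, and at 4.19, 6.32 and 3.96 with imiquimod, a log2 fold change of -2.89 ± 0.66 (SE; adjusted p = 0.00274). Every imiquimod library was far below every sham library. Of the program it marks 6 of 33 listed members were tested, 0 with a positive and 6 with a negative fold change (median -1.43, between -2.40 and -0.52 over the settings; 12 more were above 0 under the filter, 5 of them higher on average in imiquimod). Ccl5, a chemokine of effector cells, was at 19.6, 23.4 and 15.5 in the sham libraries, and at 15.7, 0 and 3.96 in the imiquimod libraries (adjusted p = 0.133). The surface protein gene Ly6c2 was at 8.94, 16.8 and 6.83 under sham cream, against 0, 0 and 6.93 under imiquimod (adjusted p = 0.165). Both overlapped between the creams. Il2rb, a receptor chain for interleukins, had a change of -0.46 ± 0.99 (adjusted p = 0.841), and the cytotoxic granule gene Nkg7 one of -0.41 ± 0.98 (adjusted p = 0.859). Both tested Ms4a genes, of 7 listed, fell. Ms4a4b, a membrane protein of T cells (chr19:11443558-11463549), was at 109.7, 105 and 88.2 with sham, and at 33.5, 32.6 and 16.8 with imiquimod, a log2 fold change of -1.89 ± 0.35 (SE; adjusted p = 0.000101). Ms4a6b, a relative encoded nearby (chr19:11518559-11530403), was at 32.4, 41.0 and 17.4 in the sham libraries, and at 0, 12.6 and 1.98 in the imiquimod libraries, a log2 fold change of -3.10 ± 0.74 (SE; adjusted p = 0.00416). For Ms4a4b the libraries of each group lay close together and far from the other group. Over fits that each left out 1 library, Ms4a6b lost its call without sham replicate 2 or imiquimod replicate 1 (adjusted p up to 0.0575).

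Homing, cytokine receptor and PI3 kinase genes gave 1 call, Ccr9, described above. Among homing receptors and integrins 19 of 34 listed members were tested, 4 with a positive and 15 with a negative fold change (median -0.64, between -1.18 and -0.39 over the settings; 14 more were above 0 under the filter, 5 of them higher on average in imiquimod). Itga4, the alpha 4 integrin chain, was at 13.4, 17.1 and 6.21 under sham cream, against 1.05, 0 and 0 under imiquimod (adjusted p = 0.0796). The integrin regulator gene Cytip was at 28.1, 49.0 and 42.4 with sham, and at 4.58, 19.5 and 19.8 with imiquimod (adjusted p = 0.103). Both were apart downwards. Among cytokine receptors and survival genes 16 of 42 listed members were tested, 3 with a positive and 13 with a negative fold change (median -1.30, between -1.81 and -0.63 over the settings; 22 more were above 0 under the filter, 7 of them higher on average in imiquimod), and 0 passed limma's test, with 5 at an unadjusted p under 0.05. Il7r, the receptor chain for interleukin 7, was at 6.15, 43.7 and 62.5 in the sham libraries, and at 10.5, 11.6 and 1.98 in the imiquimod libraries (adjusted p = 0.103). Tgfbr2, a receptor for TGF-beta, was at 13.98, 15.4 and 6.21 under sham cream, against 0, 1.05 and 1.98 under imiquimod (adjusted p = 0.139). Il7r overlapped through sham replicate 1. In the PI3 kinase pathway 8 of 29 listed members were tested, 2 with a positive and 6 with a negative fold change (median -2.00, between -2.33 and -0.94 over the settings; 16 more were above 0 under the filter, 11 of them higher on average in imiquimod), and 0 passed limma's test, with 5 at an unadjusted p under 0.05. The regulatory subunit gene Pik3r1 was at 49.0, 10.3 and 31.1 with sham, and at 5.76, 8.95 and 1.98 with imiquimod (adjusted p = 0.103). The catalytic subunit gene Pik3cd was at 23.5, 30.0 and 18.6 in the sham libraries, and at 11.01, 1.05 and 7.92 in the imiquimod libraries (adjusted p = 0.104). Both were apart downwards.

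Immediate early genes, which respond quickly to receptor signals, included 2 that fell. In that list 12 of 35 listed members were tested, 2 with a positive and 10 with a negative fold change (median -1.78, between -2.49 and -0.79 over the settings; 16 more were above 0 under the filter, 4 of them higher on average in imiquimod). Dusp2, a phosphatase of MAP kinases (chr2:127336159-127338377), was at 26.8, 58.1 and 48.4 under sham cream, against 5.24, 18.9 and 9.90 under imiquimod, a log2 fold change of -1.97 ± 0.58 (SE; adjusted p = 0.0358). Ier5 (chr1:155096367-155099636) was at 47.0, 13.9 and 36.0 with sham, and at 1.05, 34.7 and 0 with imiquimod, a log2 fold change of -2.83 ± 0.81 (SE; adjusted p = 0.029). Dusp2 was apart, while Ier5 in imiquimod replicate 2 lay within the sham range. Jun, of the AP-1 factor, was at 20.7, 8.54 and 19.3 in the sham libraries, and at 0, 0 and 3.96 in the imiquimod libraries (adjusted p = 0.0762). Its partner Fos was at 4.47, 2.44 and 22.4 under sham cream and listed at 0 in the 3 imiquimod libraries (adjusted p = 0.199). Junb was at 7.27, 32.5 and 37.3 with sham, and at 3.14, 3.16 and 14.9 with imiquimod (adjusted p = 0.155). Jun and Fos were apart downwards and Junb overlapped. Of mRNA-binding and decay genes 16 of 40 listed members were tested, 7 with a positive and 9 with a negative fold change (median -0.07, between -0.95 and 0.29 over the settings; 21 more were above 0 under the filter, 8 of them higher on average in imiquimod). Beside Btg1, its member Ddx6 fell. Ddx6, a helicase that represses and degrades mRNA (chr9:44602983-44640731), was at 39.1, 22.5 and 53.4 in the sham libraries, and at 5.24, 11.6 and 5.94 in the imiquimod libraries, a log2 fold change of -2.18 ± 0.62 (SE; adjusted p = 0.0259). The deadenylase subunit gene Cnot6l was at 16.8, 25.6 and 40.4 under sham cream, against 6.58, 5.26 and 3.96 under imiquimod (adjusted p = 0.133). When single libraries were left out, Dusp2 kept its call only without sham replicate 1 or imiquimod replicate 2 (adjusted p up to 0.159 without each of the others), and Ier5 kept its call only without sham replicate 2 or imiquimod replicate 2 (adjusted p up to 0.182 without each of the others). Likewise, Ddx6 lost its call without sham replicate 1, sham replicate 3 or imiquimod replicate 1 (adjusted p up to 0.147).

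Among actin and actin-binding proteins 42 of 55 listed members were tested, 19 with a positive and 23 with a negative fold change (median -0.14, between -0.24 and 0.29 over the settings; 13 more were above 0 under the filter, 7 of them higher on average in imiquimod), and 2 fell. Without imiquimod replicate 3 the median of this list was 0.29. Utrn, utrophin, which ties actin to the membrane (chr10:12382187-12869888), was at 30.7, 32.9 and 41.0 with sham, and at 5.24, 0 and 0 with imiquimod, a log2 fold change of -4.27 ± 0.90 (SE; adjusted p = 0.000797). Arhgap45, a GTPase-activating protein of blood cells (chr10:80016672-80031471), was at 27.7, 38.7 and 27.3 in the sham libraries, and at 1.05, 0 and 1.98 in the imiquimod libraries, a log2 fold change of -4.12 ± 1.04 (SE; adjusted p = 0.00937). The groups of both were apart. Tmsb4x, which binds actin monomers, was at 283, 230.1 and 246 under sham cream, against 136, 161 and 174 under imiquimod (adjusted p = 0.103). Cfl1, cofilin, was at 19.0, 16.1 and 42.2 with sham, and at 53.9, 76.8 and 45.6 with imiquimod (adjusted p = 0.174). These were apart in opposite directions. Across fits without 1 library each, Arhgap45 lost its call without sham replicate 2 (adjusted p 0.0581).

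Chromatin enzymes included 2 genes that fell, and there 25 of 45 listed members were tested, 8 with a positive and 17 with a negative fold change (median -0.26, between -0.86 and -0.16 over the settings; 19 more were above 0 under the filter, 10 of them higher on average in imiquimod). Kmt2a, a histone H3 lysine methyltransferase (chr9:44803355-44881352), was at 14.5, 22.7 and 32.8 in the sham libraries, and at 0, 3.16 and 0 in the imiquimod libraries, a log2 fold change of -3.85 ± 1.08 (SE; adjusted p = 0.0252). Hdac7, a class II histone deacetylase (chr15:97792661-97844502), was at 54.8, 65.4 and 49.7 under sham cream, against 7.34, 40.5 and 20.8 under imiquimod, a log2 fold change of -1.55 ± 0.47 (SE; adjusted p = 0.0413). Imiquimod replicate 2 was the highest of its group for both, and the groups were apart. The histone demethylase gene Kdm2a was at 7.83, 9.52 and 8.69 with sham, and at 0, 1.05 and 0 with imiquimod (adjusted p = 0.133). Malat1, a long noncoding RNA of nuclear speckles (chr19:5795690-5802672), fell and was at 1417, 1058 and 1246 in the sham libraries, and at 229, 363 and 381 in the imiquimod libraries, a log2 fold change of -1.96 ± 0.18 (SE; adjusted p = 2.59e-18). Of the noncoding list 9 of 21 listed members were tested, 4 with a positive and 5 with a negative fold change (median -0.29, between -1.06 and 0.18 over the settings; 7 more were above 0 under the filter, 3 of them higher on average in imiquimod). Snhg3, a host of small nucleolar RNAs, lay the other way, at 0, 3.90 and 12.4 under sham cream, against 51.9, 23.7 and 48.5 under imiquimod (adjusted p = 0.0762). The imprinted RNA Kcnq1ot1 was at 28.3, 20.5 and 20.5 with sham, and at 4.19, 11.6 and 3.96 with imiquimod (adjusted p = 0.151). Of ubiquitin ligases and deubiquitinases 11 of 27 listed members were tested, 3 with a positive and 8 with a negative fold change (median -0.32, between -1.42 and -0.06 over the settings; 16 more were above 0 under the filter, 7 of them higher on average in imiquimod), and 0 passed limma's test, with 1 at an unadjusted p under 0.05. With 1 library left out, Kmt2a kept its call only without sham replicate 1 or imiquimod replicate 2 (adjusted p up to 0.114 without each of the others), and Hdac7 kept its call only without imiquimod replicate 2 or imiquimod replicate 3 (adjusted p up to 0.282 without each of the others).

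Outside the lists, Arl4c, Stk4 and Pura fell. Arl4c, a small GTPase of the Arf family (chr1:88698225-88702191), was at 27.3, 27.8 and 39.7 in the sham libraries, and at 3.14, 7.90 and 3.96 in the imiquimod libraries, a log2 fold change of -2.50 ± 0.67 (SE; adjusted p = 0.0168). Stk4, the Hippo kinase Mst1 (chr2:164074113-164155524), was at 35.8, 37.4 and 44.7 under sham cream, against 10.5, 4.21 and 17.8 under imiquimod, a log2 fold change of -1.95 ± 0.60 (SE; adjusted p = 0.0451). Pura, a nucleic acid-binding protein, was at 78.8, 16.02 and 14.4 with sham, and at 16.8, 0 and 0 with imiquimod, a change of -3.40 ± 1.02 (SE; adjusted p = 0.0395). Arl4c and Stk4 were apart, while Pura in imiquimod replicate 1 lay within the sham range and sham replicate 1 stood far above all others. Over fits that each left out 1 library, Arl4c lost its call without sham replicate 3 or imiquimod replicate 1 (adjusted p up to 0.0989), and Stk4 kept its call only without imiquimod replicate 3 (adjusted p up to 0.144 without each of the others). Likewise, Pura kept its call only without imiquimod replicate 1 (adjusted p up to 0.243 without each of the others).

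The program of interleukin 17 producers gave no call at this depth. Its members Cd44, Icos and Il7r are described above, and Cd44 and Icos were its 2 tested members apart upwards. In that list 10 of 38 listed members were tested, 4 with a positive and 6 with a negative fold change (median -0.25, between -0.37 and 0.24 over the settings; 20 more were above 0 under the filter, 11 of them higher on average in imiquimod), and 0 passed limma's test, with 3 at an unadjusted p under 0.05. Il17a, Il22, the receptor gene Il1r1 and the transcription factor gene Zbtb16 were listed at 0 in all 6 libraries, as were Ahr, Csf2 and Tnf. Il17f, a close relative of Il17a, was listed at 0 in every sham library but at 0, 6.32 and 33.7 in the imiquimod libraries. Il23r, the receptor for interleukin 23, was above 0 only in imiquimod replicate 2, at 6.84, as was Blk, a Src-family kinase of this lineage, at 11.6. So these genes rest on single libraries or a pair of them. The transcription factor gene Rora was at 1.12, 8.30 and 1.24 under sham cream, against 24.1, 5.26 and 0 under imiquimod. Maf, also a transcription factor, was at 10.62, 9.27 and 5.59 with sham, and at 12.6, 23.2 and 1.98 with imiquimod (adjusted p = 0.969). Ccr6, a chemokine receptor, was at 0, 2.44 and 8.69 in the sham libraries, and at 0, 6.32 and 0 in the imiquimod libraries. All 3 overlapped between the creams. Ccr2, another chemokine receptor, was under the filter, at 14.5, 12.9 and 6.21 under sham cream, against 1.05, 0 and 0 under imiquimod. Cxcr6 was at 34.7, 11.96 and 27.3 with sham, and at 36.7, 6.32 and 21.8 with imiquimod (adjusted p = 0.879). Il18r1, a receptor chain for interleukin 18, was at 41.4, 28.8 and 1.24 in the sham libraries, and at 13.6, 6.32 and 0 in the imiquimod libraries (adjusted p = 0.447). Ccr2 alone of these was apart, downwards. Cd163l1, the scavenger receptor Scart1, was at 8.39, 4.88 and 14.9 under sham cream, against 23.5, 15.8 and 0 under imiquimod (adjusted p = 0.892). At this depth a gene of the program at 0, or without a call, is not shown to be absent or unchanged.

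Among NF-kB subunits, inhibitors and targets 7 of 34 listed members were tested, 3 with a positive and 4 with a negative fold change (median -0.28, between -0.71 and 0.05 over the settings; 20 more were above 0 under the filter, 7 of them higher on average in imiquimod), and 0 passed limma's test, with 0 at an unadjusted p under 0.05. Nfkbia, which encodes the inhibitor IkB alpha, was at 50.7, 36.6 and 40.8 with sham, and at 20.4, 22.6 and 25.7 with imiquimod (adjusted p = 0.312). It was apart downwards. Cyld, a deubiquitinase that restrains the pathway, was at 4.47, 8.30 and 27.3 in the sham libraries, and at 15.6, 38.9 and 25.9 in the imiquimod libraries (adjusted p = 0.468). Nfkb1, the gene named in the label of the other genotype, was at 6.71, 4.38 and 1.24 under sham cream, against 7.34, 21.0 and 0 under imiquimod, a change of 0.33 ± 1.19 (adjusted p = 0.904). The label says deficient and does not say whether Nfkb1 RNA is absent there.

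Among the listed markers of other cells, the beta chain line Tcrb, given above, stood highest. Of 27 macrophage, monocyte and dendritic cell genes 6 were above 0, and the list summed to 25.7, 37.3 and 28.6 in sham and 13.1, 27.1 and 29.7 in imiquimod, at most 0.110% of a library. It was led by Ctss, Ccr2 and Cst3, which T cells can also make. Cst3 was at most 3.35 under sham cream. With imiquimod Cst3 was listed at 0 in replicate 1 but reached 17.7 in replicate 2 and 21.8 in replicate 3. Fcer1g was above 0 only in sham replicate 3, at 14.9, and Xcr1 only in imiquimod replicate 1, at 4.72. Cd68 was above 0 only in sham replicates 2 and 3, at 1.95 and 1.24. The lists of NK cells, red cells, and stromal and endothelial cells reached at most 0.0250%, 0.00983% and 0.0232% of a library. Of 14 B cell genes 1 was above 0, at most 0.00432% of a library, and the 10 neutrophil and 7 mast cell genes were all listed at 0. Of 10 keratinocyte genes Krt10 and Sfn were above 0, with sums of 1.46 to 13.0 in sham and 0 to 18.4 in imiquimod. Prdm1, listed for plasma cells and also made by effector T cells, was listed at 0 in every sham library but at 6.81, 8.42 and 6.93 with imiquimod. The other plasma cell members summed to at most 3.73. Of 9 alpha beta T cell genes 4 were above 0, and they summed to 110, 102 and 78.6 in sham and 85.4, 69.9 and 60.6 in imiquimod, nearly all from Tcrb. The part of such cells in the results was not tested.

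The 10 lines with the highest mean in wild-type sham included Malat1, H2-K1, B2m, Tmsb4x and Rps9, described above. Actb, beta actin, was at 126, 142 and 122 in the sham libraries, and at 164, 201 and 213 in the imiquimod libraries, a log2 fold change of 0.57 ± 0.29 (SE; adjusted p = 0.251). Rpl13a was at 134, 179 and 168 under sham cream, against 158, 93.5 and 233 under imiquimod (adjusted p = 0.904). Actb was apart upwards without a call and Rpl13a overlapped. At the other end, the means next to the filter were 5.001 for Cdk17 and 5.004 for 2510039O18Rik and Plcg1 just inside, and 4.998 for Atp6v1a and 4.99 for Rbm6 and H13 just outside. Plcg1, phospholipase C gamma 1 of the receptor pathway, was at 5.59, 3.90 and 0 with sham, and at 7.34, 0 and 0 with imiquimod.

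The response of wild-type cells was last compared with that of NF-kB1-deficient cells, as the difference of the log2 fold changes in the same fit. It passed the test for 7 of 1571 genes (0.446%), 5 of them among the 51 called in wild-type cells: Malat1, Btg1, Tuba1b, Ncl and Serbp1. The other two, Tagln2 and Rbm25, had no call in either genotype. In deficient cells Malat1 was at 1267, 1196 and 1193 under sham cream, against 859, 1075 and 742 under imiquimod, and the wild-type minus the deficient response was -1.49 ± 0.25 (SE; adjusted p = 2.09e-05). Within deficient cells the Malat1 fold change was -0.47 ± 0.18 (SE; adjusted p = 0.956), which did not pass the test. Tuba1b was at 21.3, 24.9998 and 21.8 under sham cream, against 28.0, 37.0 and 22.5 under imiquimod there, a difference of 3.29 ± 0.75 (SE; adjusted p = 0.011). Ncl was at 75.7, 70.1 and 74.2 under sham cream, against 72.4, 53.4 and 61.1 under imiquimod, a difference of 2.21 ± 0.51 (SE; adjusted p = 0.011). Serbp1 was at 49.3, 94.7 and 131 under sham cream, against 66.1, 26.5 and 35.7 under imiquimod, a difference of 2.40 ± 0.56 (SE; adjusted p = 0.011). For these 3 genes the deficient libraries showed no rise like that of wild-type cells, and for Serbp1 the deficient sham libraries spread widely. Their sham means also differed between wild-type and deficient cells, 9.59 and 22.7 for Tuba1b, 39.4 and 73.3 for Ncl, and 45.6 and 91.7 for Serbp1. Part of each difference of the responses therefore lies between the sham libraries. Btg1 was at 32.3, 25.5 and 16.4 under sham cream, against 44.7, 36.7 and 47.4 under imiquimod, a difference of -3.59 ± 0.84 (SE; adjusted p = 0.0113). Its groups were apart downwards in wild-type and upwards in deficient cells. Within deficient cells, however, the Btg1 fold change was 0.81 ± 0.60 (SE; adjusted p = 0.996), which did not pass the test. The sham means of Btg1 were 47.9 in wild-type and 24.8 in deficient cells, so part of this difference too lies between the sham libraries.

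Of the 7 differences, that of Malat1 was called whichever of the 12 libraries was left out. Without wild-type imiquimod replicate 3 Tuba1b, Serbp1 and Ncl lost their call (adjusted p = 0.0776 each), and 2 differences were called in all. Without NF-kB1-deficient sham replicate 3 there were also 2, and Ncl (adjusted p = 0.0604), Btg1 (0.0637) and Serbp1 (0.147) lost theirs. Serbp1 and Btg1 were also lost without wild-type sham replicate 1 (adjusted p = 0.0632 and 0.0781), and Serbp1 and Ncl without NF-kB1-deficient imiquimod replicate 2 (0.0765 and 0.0569). Btg1 was lost as well without NF-kB1-deficient imiquimod replicate 1 or 3 (adjusted p = 0.065 and 0.0784). Tagln2 was lost without wild-type sham replicate 3, wild-type imiquimod replicate 3 or NF-kB1-deficient sham replicate 3 (adjusted p up to 0.147). Rbm25 kept its call only without wild-type imiquimod replicate 1, wild-type imiquimod replicate 2 or NF-kB1-deficient sham replicate 2, and its adjusted p was otherwise up to 0.0945. With limma's eBayes without trend and robust options 0 differences were called, and 151 genes had an unadjusted p under 0.05. For the other 46 genes called in wild-type cells the difference did not pass the test, which does not show that the genotypes respond alike. In all 51 the difference lay in the direction of the wild-type change, but they were chosen for that change.

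**Figure D5:**
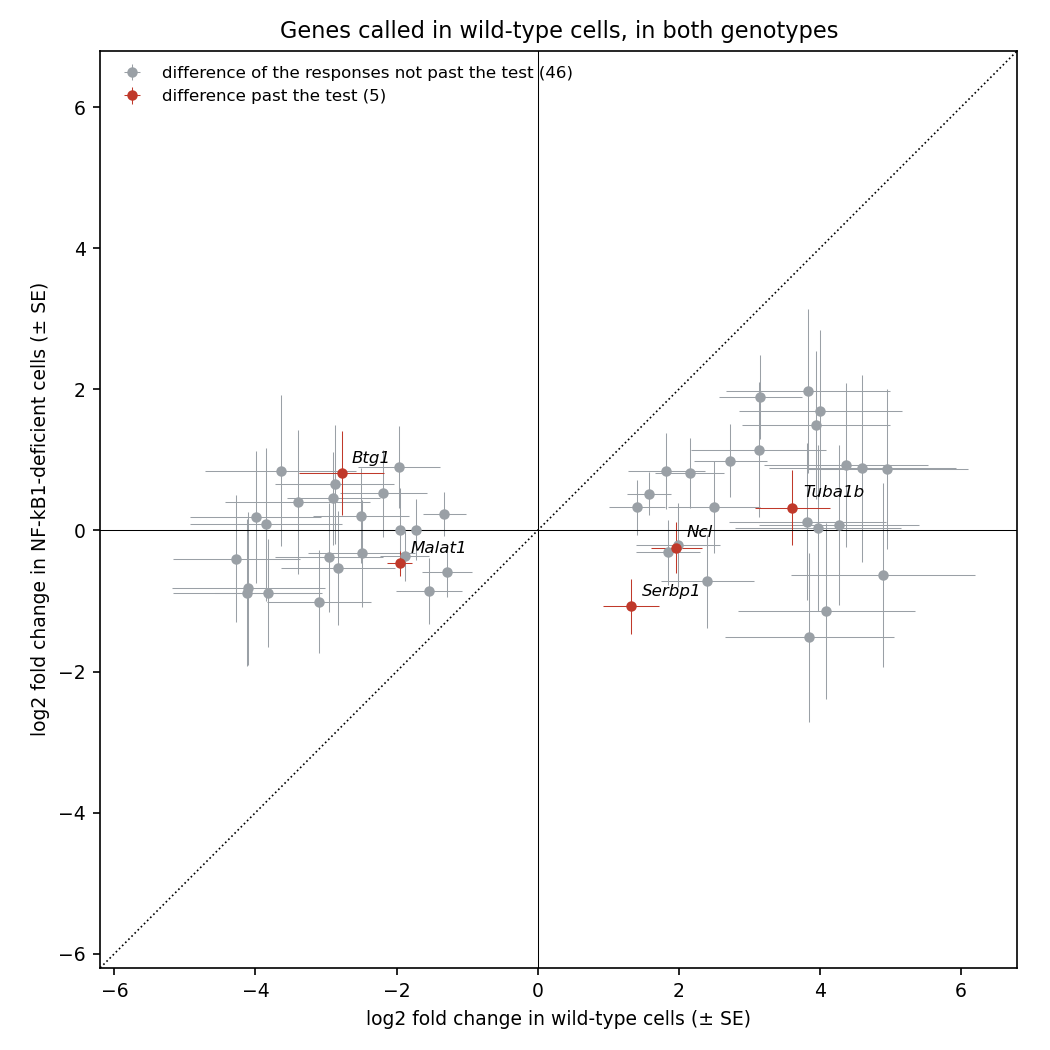
Each point is 1 of the 51 genes called in wild-type cells, by its log2 fold change under imiquimod in wild-type (horizontal) and NF-kB1-deficient cells (vertical), with bars of 1 SE and a dotted line of equal changes. Red points are the 5 genes whose responses differed by the test, and since all 51 were chosen for the wild-type change, their distance from the line is a description.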

How the data were processed

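Libraries came from Trizol RNA and the QuantSeq FWD kit, which tags 3' ends, per the labels' protocols. Per the submitters' processing notes the genome build was mm10. The software that aligned, counted and normalized the reads, and the annotation, are not named in the sources used here. The authors deposited log2 normalized read counts. These were converted to linear values, and genes averaging 5 or more across all 12 libraries entered the test. The fit used limma 3.58.1 in R 4.3.3 (with version 1.17.8 of data.table) on log2(value + 1), with a coefficient for each of the 4 groups and eBayes with trend and robust (8 residual degrees of freedom, prior 145). On this scale the changes of low genes come out too small. P-values were adjusted by Benjamini-Hochberg over the 1571 genes, with calls at 0.05. The fit was tested on simulated data. Whole reads could not be recovered from the value steps, so no count test was run, and copies of 1 molecule cannot be removed.

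No 2 of the 6 wild-type libraries held identical values. Named are the called genes, up to 4 uncalled members of each list with the lowest p, receptor and interleukin 17 genes, the 10 highest lines of sham and genes next to the filter, and some of these are not reported here. Cfl1, Max, Bcl11b, Nkg7 and the markers of other cells were named after their values were seen. Members and lists were chosen with earlier results of these data known. Gene positions are from RefSeq on GRCm38.p6, which matched 1568 of the 1571 genes by Entrez ID. Alternatives changed the pseudocount, filter, scaling, eBayes options, library weights, replicate block and libraries fitted. Fits without an NF-kB1-deficient library were added after the data had been seen.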

Additional observations from a re-analysis of the deposited data

Results flagged for a closer look

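For 7 genes the response to imiquimod differed between the genotypes by limma's test of the difference itself, given here as the wild-type minus the NF-kB1-deficient log2 fold change over 3 libraries per group. The difference was -1.49 for Malat1 (adjusted p = 2.09e-05), 3.29 for Tuba1b (0.011), 2.40 for Serbp1 (0.011), 2.21 for Ncl (0.011) and -3.59 for Btg1 (0.0113). Each of these was also called within wild-type cells. It was 3.23 for Tagln2 (adjusted p = 0.0137), an actin-binding protein whose wild-type groups were apart upwards, and -3.12 for Rbm25 (0.0214), a splicing regulator whose wild-type groups were apart downwards. Neither was called within a genotype, and in deficient cells both lay the other way. There Tagln2 was at 38.6, 43.8 and 78.0 under sham cream, against 14.3, 13.3 and 15.6 under imiquimod. Rbm25 was at 13.2, 18.7 and 13.8, against 40.1, 44.4 and 44.6. Their sham means also differed between wild-type and deficient cells, 18.8 and 53.5 for Tagln2 and 56.0 and 15.3 for Rbm25. The sham means of Tuba1b, Serbp1, Ncl and Btg1 differed between the genotypes as well, as given above. With 1 of the 12 libraries left out at a time, Malat1 kept its call throughout, Tuba1b lost it in 1 fit, Ncl and Tagln2 in 3, Serbp1 and Btg1 in 4 and Rbm25 in 9, with adjusted p up to 0.147 for Tagln2 and 0.0945 for Rbm25.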

How the results depend on the processing

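All values are from limma with adjusted p under 0.05 unless another measure is named. The wild-type comparison gave 51 calls, against 26 with a pseudocount of 0.1, 11 with no filter (9732 genes adjusted over), 18 with eBayes without trend or robust, and 28 in a fit of the 6 wild-type libraries alone. Fits without 1 library gave 23 to 72 calls. The difference between genotypes gave 7 calls, against 13 with a mean of at least 20, 1 with no filter and 0 with eBayes without trend or robust (151 at an unadjusted p under 0.05). Fits without 1 library gave 2 to 12. A pseudocount of 10 gave 72 wild-type calls (47 higher), and scaling to the same total gave 48 (19 higher). With the replicate number as a block there were 55 and 7. Same-numbered libraries had correlations of 0.00167, 0.0245 and -0.00946 in their deviations, and the other pairs -0.0529 to 0.0372. At this depth such values cannot show whether the numbers pair the samples. Of the 51 called genes 0 reversed. Uncalled genes whose fold change reversed were Ccnd3 (0.76) and Nfkb1 (-0.46) with a pseudocount of 0.1, Cd163l1 (0.11) and Tcrg-C2 (-0.0092) with a pseudocount of 10, Maf (-0.024) and Tcrg-C2 (-0.14) with scaling to the same total, and Id2 (0.10), Cxcr6 (0.011) and Cd163l1 (0.46) with array weights. With 1 wild-type library left out, fold changes ranged from -1.58 to 0.80 for Id2, -1.63 to 1.06 for Ccnd3, -1.64 to 0.40 for Cd247, -0.54 to 0.97 for Maf, -0.87 to 0.31 for Cxcr6, -1.22 to 1.08 for Cd163l1, -1.01 to 0.33 for Gata3, -0.62 to 0.36 for Lmo4, -0.32 to 0.35 for Tcrg-C2 and -0.65 to 1.58 for Nfkb1. The median of actin and actin-binding proteins then ranged from -0.10 to 0.29. Over the settings for which they were computed, 5 list medians took both signs: this one, the interleukin 17 program (-0.37 to 0.24), NF-kB (-0.71 to 0.05), long noncoding RNAs (-1.06 to 0.18) and mRNA-binding and decay (-0.95 to 0.29). The cause was not tested in any of these. Depth limits the rest: at 20507 to 69454 estimated reads per library, a gene at 0 may be expressed, and only large changes of low genes could pass.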
